A study of Mus musculus with 5 samples.

Results

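The 26 genes described here carry out or control cholesterol synthesis. They are 18 synthesis enzymes, 5 genes of the sterol-sensing system, the sterol transfer gene Stard4 and the efflux transporter genes Abca1 and Abcg1. They were chosen by symbol, as a list of pathway genes, from 49927 Ensembl gene IDs in the deposited tables. All 26 were listed above 0 in at least 1 of 5 libraries, and 13 were listed above 0 in all 5.

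Cells make cholesterol from acetyl-CoA through mevalonate, isoprenoid units, squalene and lanosterol. When membrane sterol falls, the escort protein SCAP carries the SREBP transcription factors, encoded by Srebf1 and Srebf2, from the endoplasmic reticulum to the Golgi, where they are cut and released to switch on the enzyme genes. When sterol is plentiful, the INSIG proteins hold SCAP back, and the oxysterol receptor LXR turns on the efflux genes and Srebf1. T cells need this pathway for membrane growth on activation, and regulatory T cells (Tregs) also need mevalonate products for their suppressive function.

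The libraries were messenger RNA profiles of sorted Tregs of C57BL/6 mice, 1 library per group. All mice carried Foxp3Cre, a Cre recombinase in the gene of the Treg transcription factor Foxp3, so the controls carry it too. Tregs of lymph nodes (LN) and of adipose tissue came from 4-month Foxp3Cre mice, and a further adipose library came from 4-month Foxp3Cre mice labelled obese, whose title adds HFD, commonly high-fat diet. The adipose library with no obesity in its labels is called lean here. The 10-month adipose libraries came from Foxp3Cre mice and from Med23fl/fl;Foxp3Cre mice, in which Cre should remove floxed Med23, a subunit gene of the Mediator complex, in cells that use Foxp3. Neither the sorting gate nor the number of mice per library is stated in the labels.

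Values are the authors' scaled read counts per gene. A listed 0 stands for a value under 1, and the reads behind it were worked out from the authors' fold change where that was given. The reads behind the listed values numbered between 4595046 and 9694474 per library, fewest in the library labelled Med23 KO. With 1 library per group there is no test and no spread between mice. The interval in parentheses after a fold is its 95% counting interval (exact Clopper-Pearson), which covers counting error only, because PCR copies of 1 molecule cannot be recognised.

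Med23 stood at 13.9 scaled counts within the library labelled Med23 KO, at 7.02 in 10-month Foxp3Cre adipose, 6.71 in LN, 44.6 in lean and 31.4 in obese adipose. The targeted gene thus went against the label, and every direction below for that library rests on the label alone. The counts span the whole gene and do not show whether the floxed part was lost. Of 8 Treg and T cell markers, 8 were above 0 in every library, with a summed level of 6613 to 8924 CPM (counts rescaled to a sum of 1000000 per library). Single markers were less even. Foxp3 had 55.1 scaled counts in LN and between 140 and 206 in the adipose libraries. Cd3g had 2925 in LN and 692 in lean adipose, and Il2ra ranged from 289 in obese to 1568 in 10-month Foxp3Cre adipose. The 12 macrophage and dendritic cell markers summed to 7.01 CPM in LN, 950 in lean, 5364 in obese, 659 in 10-month Foxp3Cre adipose and 105 for the library labelled Med23 KO. The lean and obese libraries also stood apart: the Y-linked gene Ddx3y had 532 and 529 scaled counts in them and 0 elsewhere, and Gapdh had 1.002 and 10.1 against 492 to 1028 elsewhere. Tissue cannot be told apart from this split in lean or obese adipose against LN. Like LN, 10-month Foxp3Cre adipose had Xist (489 and 239 scaled counts), no Ddx3y and high Gapdh, but its age differs from that of LN.

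RefSeq promoter windows (build GRCm38.p6, 250 bases before to 50 after a transcript start) matched 21 of the 26 genes, in 29 windows. These 3 windows are shown because they hold a match without mismatch to a sterol-linked motif. In Hmgcs1 (chr13:119690101-119690400, + strand) the capitals mark a match to the sterol response element bound by SREBP, searched as TCACNCCAC on both strands. In Abca1 (chr4:53159846-53160145, - strand) and in 1 of the 3 windows of Srebf1 (chr11:60210422-60210721, - strand) the capitals mark a match, on the opposite strand, to the LXR element searched as GGTNA, any 5 bases, then GGTCA, on both strands.
Hmgcs1: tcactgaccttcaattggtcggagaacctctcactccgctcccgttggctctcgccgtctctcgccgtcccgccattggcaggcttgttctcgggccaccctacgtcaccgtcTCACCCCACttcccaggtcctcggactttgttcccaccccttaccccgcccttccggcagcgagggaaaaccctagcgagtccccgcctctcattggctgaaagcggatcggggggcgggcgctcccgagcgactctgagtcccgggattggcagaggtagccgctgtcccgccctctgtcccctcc
Abca1: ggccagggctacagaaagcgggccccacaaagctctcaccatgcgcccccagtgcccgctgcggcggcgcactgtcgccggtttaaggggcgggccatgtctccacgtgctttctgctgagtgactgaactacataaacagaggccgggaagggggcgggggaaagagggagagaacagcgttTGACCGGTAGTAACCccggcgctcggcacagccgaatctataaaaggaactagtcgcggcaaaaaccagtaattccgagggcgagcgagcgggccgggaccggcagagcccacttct
Srebf1: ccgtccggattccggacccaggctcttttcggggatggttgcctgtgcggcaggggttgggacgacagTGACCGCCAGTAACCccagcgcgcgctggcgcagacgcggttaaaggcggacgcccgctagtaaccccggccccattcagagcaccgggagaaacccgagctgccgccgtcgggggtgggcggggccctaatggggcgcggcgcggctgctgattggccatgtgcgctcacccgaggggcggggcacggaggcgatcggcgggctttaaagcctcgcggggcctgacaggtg
The sterol response element lies 137 to 129 bases before the Hmgcs1 start, and the LXR elements lie 67 to 53 bases before the Abca1 start and 182 to 168 before the Srebf1 start. Of all 32851 windows, 1.24% held the first motif and 0.207% the second. The CCAAT box bound by NF-Y, the usual partner of SREBP, was in the windows of 18 of the 21 genes, beside 41.1% of all genes. These are matches of letters and not shown binding sites.

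**Figure D1:**
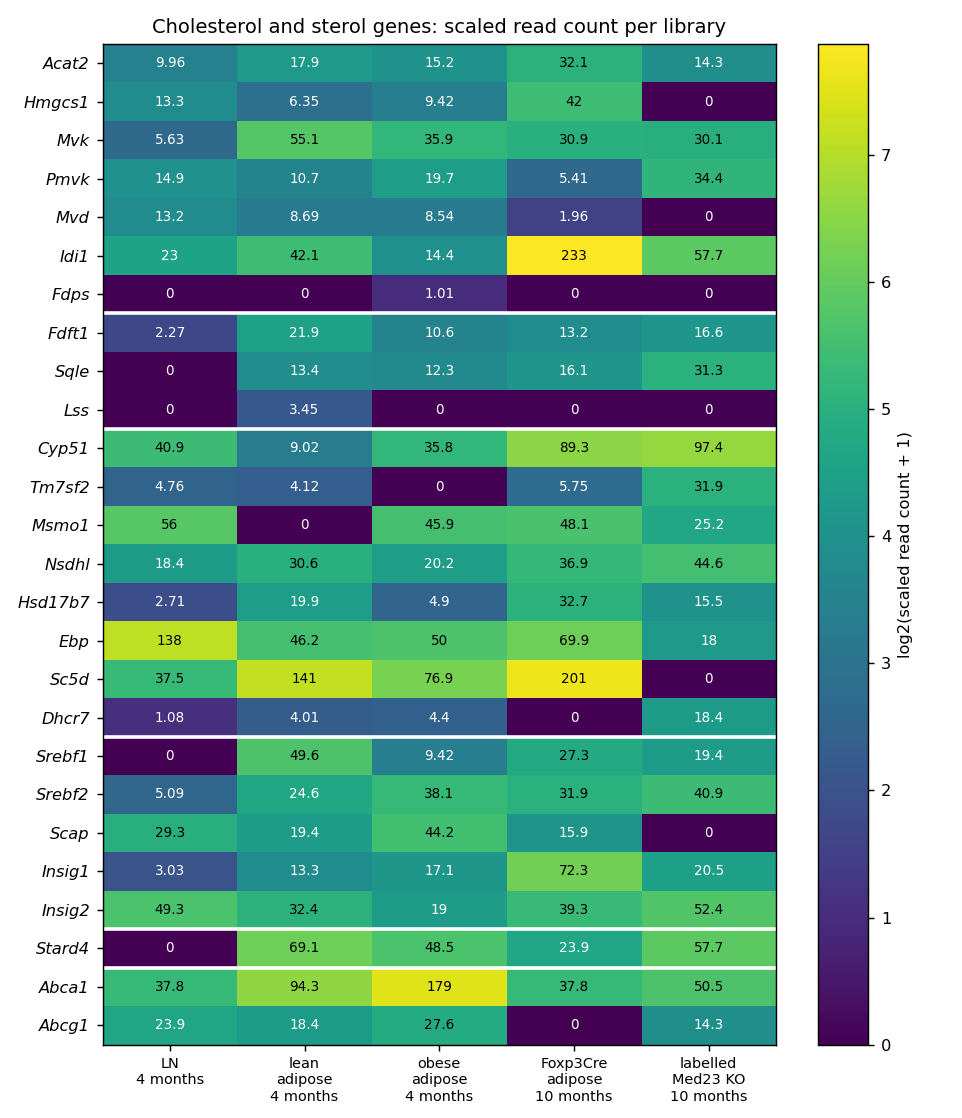
Scaled read counts of the 26 genes (rows, in pathway order, white lines between roles) in the 5 libraries (columns); colour is log2(scaled read count + 1) and each cell gives the scaled count. No library is high for the whole pathway: Idi1 peaks at 233 in 10-month Foxp3Cre adipose, Ebp at 138 in LN and Abca1 at 179 in obese adipose.

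The genes did not share 1 pattern across the libraries. The highest CPM was that of the library labelled Med23 KO for 8 genes (Pmvk, Sqle, Cyp51, Tm7sf2, Nsdhl, Dhcr7, Srebf2 and Insig2), in 10-month Foxp3Cre adipose for 6 (Acat2, Hmgcs1, Idi1, Hsd17b7, Sc5d and Insig1), in lean adipose for 5 (Mvk, Fdft1, Lss, Srebf1 and Stard4), in obese adipose for 4 (Fdps, Scap, Abca1 and Abcg1) and in LN for 3 (Mvd, Msmo1 and Ebp). Summed over the 18 enzymes, the level was 364 CPM in LN, 457 in lean, 388 in obese, 774 in 10-month Foxp3Cre adipose and 484 in the library labelled Med23 KO. Without Sc5d it was 328, 309, 306, 593 and 484, so the higher lean sum came from Sc5d.

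The enzymes of the mevalonate steps turn acetyl-CoA into isoprenoid units. Hmgcs1, the synthase that commits carbon to the pathway, had 13.3 scaled counts in LN, 6.35 in lean, 9.42 in obese and 42.0 in 10-month Foxp3Cre adipose. The library labelled Med23 KO had 2 reads, listed as 0. Idi1, which isomerises the isoprenoid unit, had 23.0, 42.1, 14.4, 233 and 57.7 in the same order. Both genes were thus highest in 10-month Foxp3Cre adipose. Mvk, the mevalonate kinase gene, had 5.63 in LN and between 30.1 and 55.1 in the 4 adipose libraries. Pmvk, which adds the next phosphate, had 14.9, 10.7, 19.7, 5.41 and 34.4, and Mvd, the decarboxylase gene, had 13.2, 8.69, 8.54, 1.96 and 0. Kinase and decarboxylase genes of adjoining steps therefore did not move together. Acat2, the cytosolic thiolase gene that joins acetyl-CoA units, lay between 9.96 in LN and 32.1 in 10-month Foxp3Cre adipose. Fdps, the farnesyl diphosphate synthase gene, was listed at 1.01 in obese adipose (8 reads) and at 0 elsewhere.

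The next steps join isoprenoids into squalene and close the rings. Sqle, the squalene epoxidase gene, had 0 scaled counts in LN (1 read), 13.4 in lean, 12.3 in obese, 16.1 in 10-month Foxp3Cre adipose and 31.3 in the library labelled Med23 KO. Fdft1, the squalene synthase gene, had 2.27, 21.9, 10.6, 13.2 and 16.6. For both genes all 4 adipose libraries were above LN. Lss, the lanosterol synthase gene, had 3.45 in lean adipose and 0 in the others. In the GENCODE M21 annotation 18.3% of Fdft1 exon bases lie opposite exons of Ctsb. Strand use in the counting is not given, so Fdft1 values could hold Ctsb reads. Likewise 12.1% of Hmgcs1 and 13.2% of Scap exon bases overlap another gene. The largest share was in Fdps, where 26.7% of exon bases are shared on the same strand with Gm43738, whose summed scaled count was 0. How reads in shared bases were counted is not given.

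From lanosterol to cholesterol, single genes were missing from single libraries. Msmo1, the sterol methyl oxidase gene, had 56.0 in LN, 45.9 in obese, 48.1 in 10-month Foxp3Cre adipose and 25.2 within the library labelled Med23 KO. Lean adipose had no Msmo1 reads. Sc5d, the lathosterol desaturase gene, had 37.5 in LN, 141 in lean, 76.9 in obese and 201 in 10-month Foxp3Cre adipose, and no reads in the library labelled Med23 KO. Such gaps were rare: of 3749 genes at 20 CPM or more in the 4 other libraries, 0.587% were listed at 0 in lean adipose, and of 3859 such genes 1.79% in the library labelled Med23 KO. Cyp51, the lanosterol demethylase gene, had 40.9 in LN, 9.02 in lean, 35.8 in obese, 89.3 in 10-month Foxp3Cre adipose and 97.4 for the library labelled Med23 KO. Ebp, the sterol isomerase gene, had 138, 46.2, 49.999, 69.9 and 18.0. Cyp51 was thus lowest in lean adipose and Ebp highest in LN. Hsd17b7, a sterol ketone reductase gene, had 2.71, 19.9, 4.90, 32.7 and 15.5. Nsdhl, which removes a methyl group as carbon dioxide, stayed between 18.4 in LN and 44.6 for the library labelled Med23 KO. The reductase genes Tm7sf2 and Dhcr7 were low outside 1 library: the library labelled Med23 KO had 31.9 for Tm7sf2 and 18.4 for Dhcr7, beside at most 5.75 and 4.40 elsewhere.

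Among the sterol-sensing genes, both SREBP genes were low in LN. Srebf1 had 0 scaled counts in LN (8 reads), 49.6 in lean, 9.42 in obese, 27.3 in 10-month Foxp3Cre adipose and 19.4 in the library labelled Med23 KO. Srebf2, whose protein drives mainly cholesterol genes, had 5.09 in LN and between 24.6 and 40.9 in the adipose libraries. Insig1, itself an SREBP target, had 3.03, 13.3, 17.1, 72.3 and 20.5, also lowest in LN. Insig2 went otherwise, with 49.3 in LN and between 19.0 and 52.4 in adipose. Scap had 29.3, 19.4, 44.2, 15.9 and 0, with no reads in the library labelled Med23 KO. Stard4, a sterol carrier that moves cholesterol between membranes, had no reads in LN and 69.1, 48.5, 23.9 and 57.7 in the adipose libraries. It was 1 of 58 genes (1.46% of 3983) listed at 0 in LN and at 20 CPM or more in the other 4 libraries.

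Lean adipose against LN addressed what sets Tregs of fat apart from those of lymphoid tissue. The SREBP genes, the squalene genes, Mvk and Stard4 were higher in lean adipose, while Msmo1, Cyp51 and Ebp were lower. Among the 25 genes with 1 scaled count or more in either library (measured genes), 12 (48.0%) reached a 2-fold higher value on the log2(value + 1) scale, beside 37.6% of all 13541 measured genes. On that scale Msmo1, Cyp51 and Ebp, 3 of 25 (12%), reached 2-fold lower, beside 32.1% of all. The median log2 ratio was 0.85 beside 0.14 for all genes. Hmgcs1 was under 2-fold lower on that scale but 2.10-fold lower (1.52 to 2.92) without the added 1. Srebf1 was 57.2-fold higher (28.8 to 133), on 8 reads in LN, Mvk 9.79-fold higher (7.35 to 13.3) and Srebf2 4.84-fold higher (3.52 to 6.78). Sqle was 123-fold higher (21.7 to 4916) from the single LN read, and Stard4 at least 212.6-fold higher, taking 3 reads in place of none. Such a bound, here and below, carries no counting interval. Sc5d was 3.76-fold higher (3.34 to 4.25). In the other direction Cyp51 was 4.54-fold lower (3.56 to 5.84), Ebp 3.00-fold lower (2.68 to 3.35) and Msmo1 at least 167.5-fold lower. The authors' deposited table marks 13 of the 24 members with a fold change, beside 53.2% of all genes, as differing between these libraries. In lean adipose 12 of 12 macrophage and dendritic cell markers and 6 of 6 measured fibroblast and mesothelial markers were above LN by 2-fold or more, the latter with 982 CPM summed beside 8.56, and their part in these values was not tested.

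Obese adipose against LN gave the SREBP genes, Insig1, Stard4 and Abca1 as higher. Among 25 measured members, 11 (44.0%) lay 2-fold or more higher beside 41.8% of all, and 3 (12%) at least 2-fold lower beside 23.7% of all. The share higher was therefore near the background, and with ratios centred on the median of all genes the split was 8 higher and 5 lower. Srebf2 was 7.41-fold higher (5.43 to 10.3), Srebf1 10.8-fold higher (5.19 to 25.9) and Insig1 5.58-fold higher (3.69 to 8.71). Ebp was 2.80-fold lower (2.50 to 3.14), Insig2 2.62-fold lower (2.18 to 3.17) and Tm7sf2 19.1-fold lower (4.995 to 163), on 2 reads in obese adipose. Cyp51 and Msmo1, both lower in lean adipose, differed by less than 2-fold here, at 1.15-fold lower (0.99 to 1.35) and 1.23-fold lower (1.08 to 1.41). The authors' deposited table marks 10 of 24 members, beside 41.8% of all genes. All 12 macrophage and dendritic cell markers were above LN by 2-fold or more here too, as were the 5 measured of 7 adipocyte markers, led by Fabp4 at 277 scaled counts. Plin1 and Lep were at 0 in both libraries. Their part was not tested.

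In 10-month Foxp3Cre adipose against LN, compared in CPM since each table has its own scaling, Acat2, Hmgcs1 and Idi1 were higher as well, while Pmvk and Mvd were lower. Among 24 measured members, 13 (54.2%) lay 2-fold or more higher beside 34.1% of all 13263, and 5 (20.8%) at least 2-fold lower beside 29.6%, with a median log2 ratio of 1.26 beside 0.11. Insig1 was 22.6-fold higher (15.5 to 34.2), Idi1 9.62-fold higher (8.35 to 11.1), Hsd17b7 11.4-fold higher (7.57 to 17.9) and Sc5d 5.07-fold higher (4.52 to 5.71). Hmgcs1, which was 2.10-fold lower (1.52 to 2.92) in lean adipose, was 2.98-fold higher (2.42 to 3.69) here, and Cyp51 was 2.06-fold higher (1.82 to 2.34). Srebf2 was 5.92-fold higher (4.33 to 8.25) and Srebf1 29.8-fold higher (14.9 to 69.7). Stard4 was at least 69.6-fold higher. Mvd was 7.14-fold lower (4.28 to 12.7), Pmvk 2.92-fold lower (2.09 to 4.16) and Ebp 2.09-fold lower (1.90 to 2.31). Abcg1 was also lower, as was Dhcr7 on 3 reads against 10. With recovered reads in place of listed zeros Dhcr7 was under 2-fold and the count was 4. In this comparison 10 of 10 measured macrophage and dendritic cell markers were above LN by 2-fold or more, and their part was not tested. All 3 comparisons use the same LN library, so a low or high LN value enters each of them. The 4 B cell markers summed to 99.7 CPM in LN and to 3.51, 25.7 and 7.77 in lean, obese and 10-month Foxp3Cre adipose. The 4 erythroid markers were listed at 0 in LN and summed to 540, 944 and 926 CPM in those adipose libraries. The part of B cells and erythroid cells in these values was not tested.

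**Figure D2:**
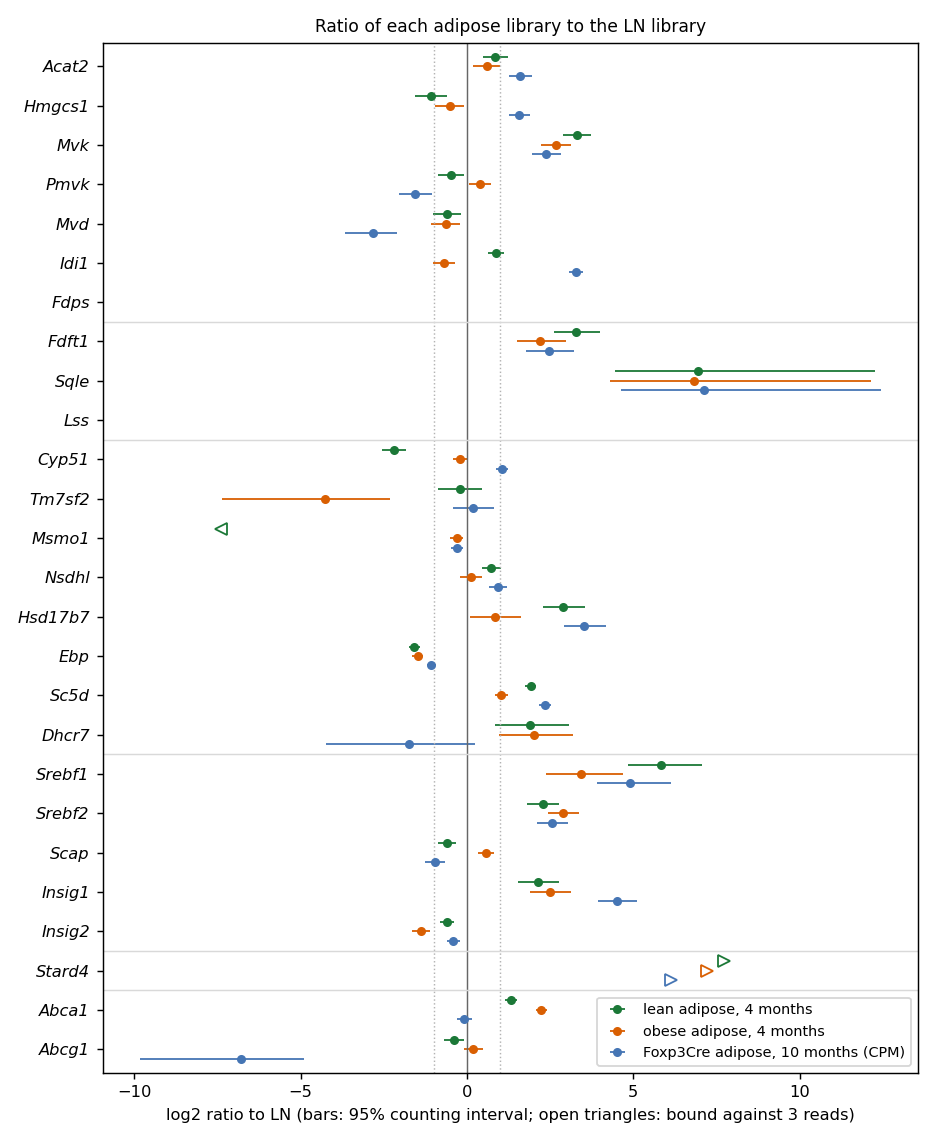
Log2 ratio of each gene in 3 adipose libraries to the LN library (points; bars are 95% counting intervals, open triangles are bounds with 3 reads in place of none, dotted lines mark 2-fold). Mvk, Fdft1, Sqle, Sc5d, Srebf1, Srebf2, Insig1 and Stard4 lie right of 2-fold in each, and Ebp lies left of 2-fold in each. Acat2, Nsdhl and Hsd17b7 also lie right of no change in each, and Mvd, Msmo1 and Insig2 left, but not past 2-fold in each. Cyp51 and Hmgcs1 lie left for lean adipose and right for 10-month Foxp3Cre adipose. Fdps and Lss have no point.

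Proliferating cells need sterol, and the 10 proliferation markers summed to 1093 CPM in LN, 426 in lean, 586 in obese, 1075 in 10-month Foxp3Cre adipose and 1156 for the library labelled Med23 KO. The part of proliferation in the values of the 26 genes was not tested.

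Abca1 and Abcg1, the LXR-driven transporters that pass cholesterol to lipoproteins, were not parallel. Abca1 had 37.8 scaled counts in LN, 94.3 in lean, 179 in obese, 37.8 in 10-month Foxp3Cre adipose and 50.5 in the library labelled Med23 KO. Abcg1 had 23.9, 18.4, 27.6, 0 (2 reads) and 14.3. Over LN, Abca1 was 2.50-fold higher in lean adipose (2.20 to 2.84) and 4.70-fold higher in obese adipose (4.18 to 5.30). In 10-month Foxp3Cre adipose it was 1.06-fold lower than in LN (0.91 to 1.23), a difference within counting error. Abcg1 differed from LN by less than 1.5-fold in lean and obese adipose but was 110-fold lower (30.1 to 914) in 10-month Foxp3Cre adipose. Macrophages also use both genes. The macrophage and dendritic cell markers were highest in obese adipose, where 12 of 12 were above 0 and Csf1r had 99.7 and Mrc1 495 scaled counts, and 11 of 12 were listed at 0 in LN. Their part in the Abca1 values was not tested, and in bulk samples other cells and more RNA per Treg cannot be told apart. Abca1 was at 34.1 CPM in 10-month Foxp3Cre adipose and 36.0 in LN, and the macrophage and dendritic cell markers summed to 659 and 7.01 CPM. Each is 1 library, and what those cells add to Abca1 there was not tested either. Most of that 10-month sum was Lyz2, at 530 scaled counts. Csf1r had 6.33, Cd68 10.8 and Mrc1 28.3 there, and Fcgr3 and Itgam were listed at 0. The LXR gene Nr1h3 was listed at 1.51 in obese adipose and at 0 in the others. The other LXR gene, Nr1h2, had 37.4, 37.1, 62.6, 85.6 and 114.

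**Figure D3:**
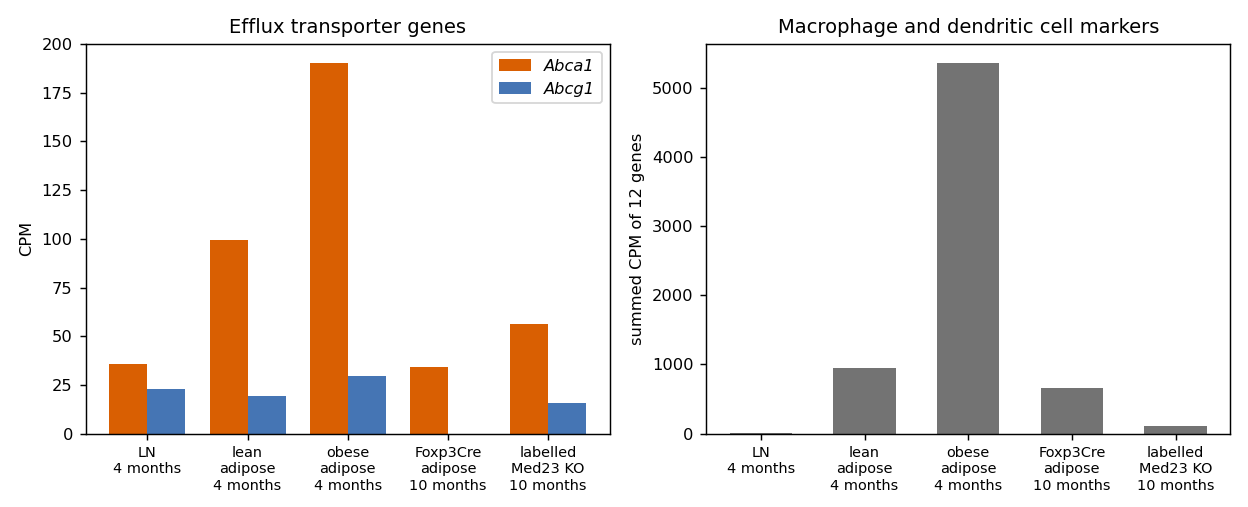
Left, CPM of Abca1 and Abcg1 in the 5 libraries; right, summed CPM of 12 macrophage and dendritic cell markers in the same libraries (bars are single libraries, without error). Abca1 and the marker sum are both highest in obese adipose. Abca1 is at 36.0 CPM in LN and 34.1 in 10-month Foxp3Cre adipose, and the marker sums there are 7.01 and 659 CPM. Most of the 659 CPM is Lyz2. The part of those cells in the Abca1 values was not tested.

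Obese against lean adipose addressed how obesity goes with the adipose Treg profile, in libraries that share Ddx3y and low Gapdh. Cyp51, Msmo1 and Scap were higher in obese adipose, and Srebf1, Idi1 and Hsd17b7 lower. Among 26 measured members, 4 (15.4%) lay 2-fold or more higher in obese adipose beside 34% of all 14805, and 5 (19.2%) at least 2-fold lower beside 18.6%. On the authors' scale the split was 3 higher and 6 lower, and after centring on the median of all genes 2 higher and 7 lower. In CPM, Cyp51 had 38.02 in obese and 9.48 in lean adipose, 4.01-fold higher (3.12 to 5.20), Scap was 2.30-fold higher (1.92 to 2.78), and Msmo1 had 48.7 against no reads, at least 138.6-fold higher. The fourth gene was Fdps, on 8 reads. Srebf1 was 5.21-fold lower (4.07 to 6.74), Hsd17b7 4.03-fold lower (2.84 to 5.85), Idi1 2.89-fold lower (2.34 to 3.59) and Tm7sf2 16.2-fold lower (4.19 to 139), and Lss had 3.63 CPM in lean adipose and was listed at 0 in obese. Srebf2 was 1.56-fold higher (1.31 to 1.87) and Abca1 1.92-fold higher (1.76 to 2.09), both under 2-fold. Obese adipose had 12 of 12 macrophage and dendritic cell markers at 2-fold or more above lean, and 6 of 6 measured fibroblast and mesothelial markers at least 2-fold lower. The 5 measured adipocyte markers (306 CPM summed beside 13.7) and 6 of 10 proliferation markers were also at least 2-fold higher in obese adipose. Most of the adipocyte sum was Fabp4, at 277 scaled counts in obese adipose. Lipe had 6.28 there, Retn 1.88, and Adipoq and Cidec 1.76 each, while Plin1 and Lep were listed at 0. The part of all these markers in these values was not tested.

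In 10-month against 4-month lean adipose, Hmgcs1, Idi1, Cyp51, Insig1 and Msmo1 were higher and Srebf1, Stard4 and both efflux genes lower. Among 25 measured members, 5 (20%) lay 2-fold or more higher at 10 months beside 28.4% of all 13958, and 9 (36%) at least 2-fold lower beside 32.6%. The 5 were Hmgcs1, 5.67-fold higher (4.28 to 7.63), Idi1, 4.75-fold higher (4.26 to 5.32), Cyp51, 8.48-fold higher (6.74 to 10.8), Insig1, 4.68-fold higher (3.84 to 5.74), and Msmo1, at least 123-fold higher. Stard4 was 3.37-fold lower (2.87 to 3.96), Abca1 2.91-fold lower (2.56 to 3.31), Abcg1 93.2-fold lower (25.4 to 776) and Mvd 5.18-fold lower (3.04 to 9.35). Srebf1 was 2.12-fold lower (1.81 to 2.49), and Srebf2 1.11-fold higher (0.93 to 1.33), within counting error. Age cannot be told apart from the Ddx3y and Gapdh split or from the separate scaling of the tables. In the 10-month library 6 of 6 measured fibroblast and mesothelial markers (48.9 CPM summed beside 982 in lean adipose) and 9 of 12 macrophage and dendritic cell markers were at least 2-fold lower and 8 of 10 proliferation markers at least 2-fold higher, and their part was not tested.

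The library labelled Med23 KO against 10-month Foxp3Cre adipose addressed the role of Med23 in adipose Tregs. Acat2, Hmgcs1, Idi1, Sc5d, Scap and Insig1 were lower in it, while Pmvk, the reductase genes Tm7sf2 and Dhcr7, Stard4 and Abcg1 were higher. Of 24 measured genes, 9 (37.5%) were at least 2-fold lower beside 34.9% of all 13549, and 5 (20.8%) at least 2-fold higher beside 28.6%, both near the background. In CPM the split was 7 lower and 6 higher, since rescaling raised each log2 ratio of this pair by 0.30 before the pseudocount. Hmgcs1 was 107-fold lower (29.5 to 889), on 2 reads against 365. Idi1 was 4.04-fold lower (3.58 to 4.59), Ebp 3.88-fold lower (3.12 to 4.89), Insig1 3.52-fold lower (2.86 to 4.37) and Acat2 2.25-fold lower (1.73 to 2.95). Sc5d, with no reads against 1748, was at least 342.5-fold lower, and Scap, with no reads against 138, at least 27.0-fold lower. Hsd17b7 was 2.11-fold lower (1.64 to 2.75), and Mvd was listed at 0 against 1.96, which was 17 reads.

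The 5 higher genes act at separate steps. Dhcr7 had 94 reads against 3, a 53.3-fold higher level (17.7 to 263), and Abcg1 had 73 reads against 2, a 62.1-fold higher level (16.6 to 522). Pmvk was 6.37-fold higher (4.59 to 8.99), Tm7sf2 5.55-fold higher (4.02 to 7.77) and Stard4 2.41-fold higher (2.01 to 2.90). In GENCODE M21, 12.1% of Tm7sf2 exon bases are shared with Vps51. Both SREBP genes differed by less than 2-fold, with Srebf2 1.28-fold higher (1.07 to 1.54) and Srebf1 1.41-fold lower (1.11 to 1.80). The authors' deposited table marks 11 of 23 members, 6 of them lower, beside 40.8% of all genes. Macrophage and dendritic cell markers were at least 2-fold lower for 10 of 10 measured, and the part of those cells in these values was not tested. The 4 erythroid markers summed to 7025 CPM for the library labelled Med23 KO and 926 for 10-month Foxp3Cre adipose.

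**Figure D4:**
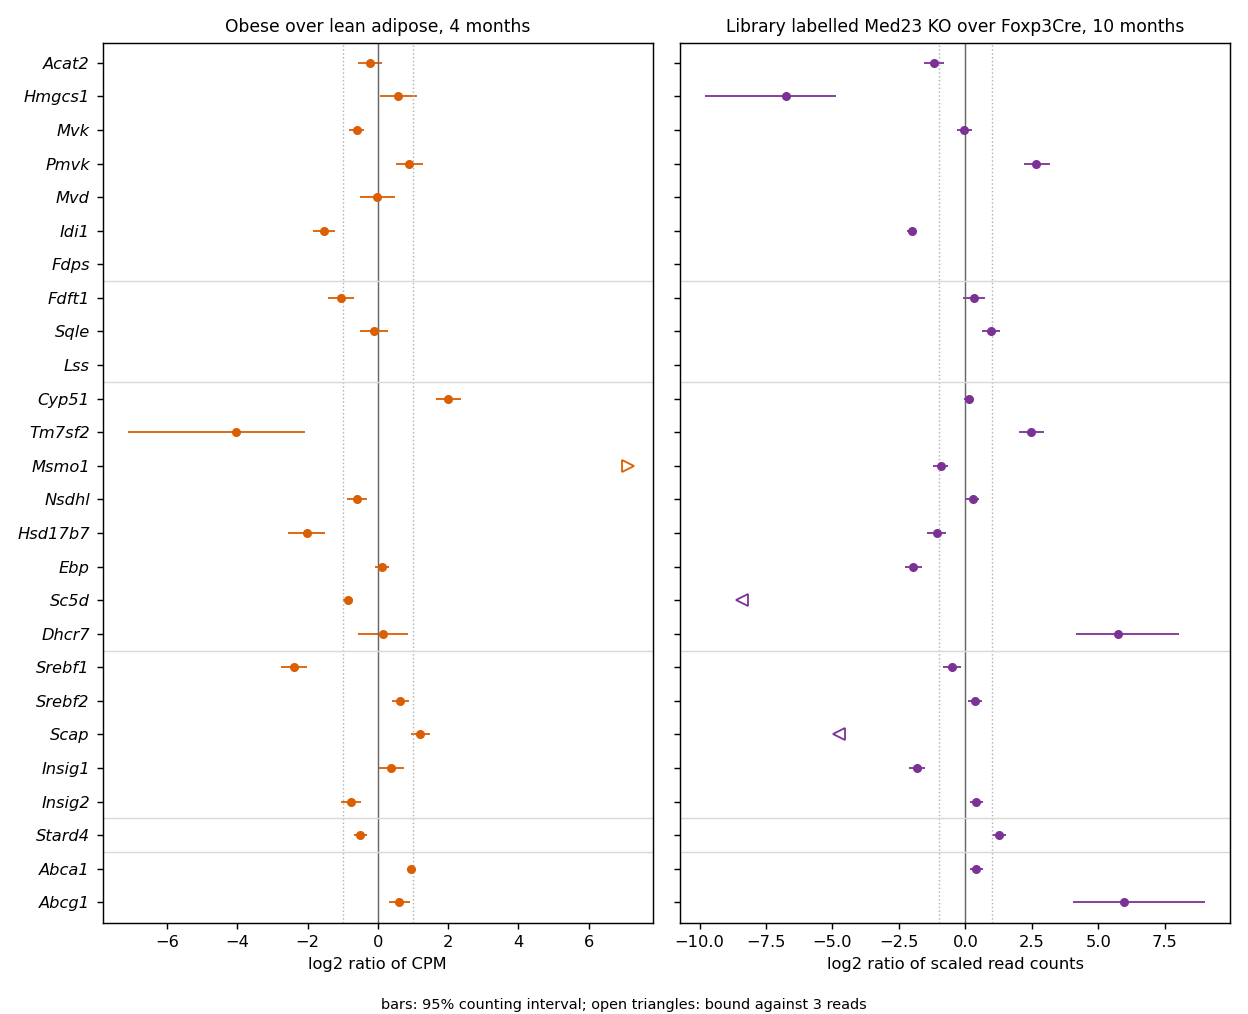
Log2 ratios of the 26 genes in obese over lean adipose (left, CPM) and in the library labelled Med23 KO over 10-month Foxp3Cre adipose (right, scaled counts); bars are 95% counting intervals, open triangles are bounds with 3 reads in place of none, and dotted lines mark 2-fold. In the left panel Cyp51, Msmo1 and Scap lie right of 2-fold, and Srebf1, Idi1, Hsd17b7, Tm7sf2 and Fdft1 (2.06-fold lower without a pseudocount) left. In the right panel Acat2, Hmgcs1, Idi1, Hsd17b7, Ebp, Sc5d, Scap and Insig1 lie left, and Pmvk, Tm7sf2, Dhcr7, Stard4 and Abcg1 right.

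A list of 41 other genes of the pathway, for SREBP processing, LXR, side branches, sterol transport and acetyl-CoA supply, moved in both directions. In lean adipose against LN, 11 of 38 measured (28.9%) were at least 2-fold higher and 13 (34.2%) lower, beside 37.6% and 32.1% of all genes. In obese adipose against LN, 13 of 39 (33.3%) were higher and 6 (15.4%) lower, beside 41.8% and 23.7%. In 10-month Foxp3Cre adipose against LN, 9 of 37 (24.3%) were higher and 8 (21.6%) lower, beside 34.1% and 29.6%. The share higher was below that of all genes in each. In lean adipose, Cyp27a1, which makes an oxysterol that activates LXR, had 36.6 scaled counts and Lrp1, a lipoprotein uptake receptor gene that macrophages and fibroblasts also use, had 12.03, both listed at 0 in LN. Nus1, a subunit gene of the dolichol branch, had 47.1 in LN and 0 (3 reads) in lean adipose, 141-fold lower (47.9 to 686), and Erlin2, a gene of INSIG-linked protein degradation, had 18.3 and no reads. In obese adipose Lpcat3, an LXR target, had 17.0 and Cyp27a1 16.2, both with no reads in LN, while Scarb1, an uptake receptor gene, had no reads against 9.18, and Fntb, a farnesyl transferase subunit gene, was 6.09-fold lower (3.70 to 10.6). In 10-month Foxp3Cre adipose Mbtps1, the protease gene that makes the first cut in SREBP, was 7.28-fold lower than in LN (5.93 to 9.02), and Scarb1 was listed at 0 against 8.66 CPM, while Lpcat3 had 12.4 CPM and Soat2 14.8 against listed zeros.

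Between adipose libraries the same list was mixed. In obese against lean adipose 14 of 40 (35%) were at least 2-fold higher and 6 (15%) lower, near the 34% and 18.6% of all genes, with Nus1 124-fold higher (42.1 to 605) on 3 lean reads and Stard3, a sterol transfer gene of late endosomes, 83.7-fold higher (22.8 to 698). Vldlr, a lipoprotein receptor gene, was listed at 0 against 9.601 CPM in lean adipose, and Pggt1b, a prenyl transferase subunit gene, was 4.29-fold lower (2.07 to 10.0) in obese adipose. In 10-month against 4-month lean adipose 11 of 38 (28.9%) were higher and 13 (34.2%) lower, near the 28.4% and 32.6% of all genes, with Nus1 166-fold higher (56.6 to 809) on 3 lean reads and Soat2 at 14.8 CPM against a listed 0, while Cyp27a1 (38.5 CPM in lean adipose) and Vldlr were listed at 0 at 10 months. In the library labelled Med23 KO against 10-month Foxp3Cre adipose 8 of 35 (22.9%) were higher and 14 (40%) lower, beside 28.6% and 34.9% of all genes. Osbp, an oxysterol-binding transfer gene, was 7.10-fold higher there (5.86 to 8.66) and Erlin2 6.21-fold higher (3.88 to 10.3). Stard5, a sterol carrier gene, had 2 reads against 413, 121-fold lower (33.4 to 1006), and Soat2, a cholesterol esterification gene, had no reads against 16.4 scaled counts. The 3 acetyl-CoA supply genes, singled out after their values were seen, were all lower in it: Acly, which makes cytosolic acetyl-CoA from citrate, was 7.86-fold lower (6.23 to 10.04), Acss2, which makes it from acetate, 3.79-fold lower (3.03 to 4.77) and the mitochondrial thiolase gene Acat1 2.26-fold lower (1.86 to 2.76).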

How the data were processed

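Messenger RNA of sorted Tregs was sequenced from 5 libraries, 1 per group, grouped by their titles and the labels for tissue, age and genotype. Per the submitters' processing notes, Bowtie2 2.0.6, TopHat2 2.0.9 and genome build mm8 were used, while the read counter, annotation, strand setting and scaling method is each not given in the sources used here. The authors deposited 3 tables of 2 libraries each, holding for each Ensembl ID a scaled read count (the signal on which values here rest) together with a log2 fold change and its p-value and q-value. The authors' p-values and q-values compare 2 libraries and are not printed. Every nonzero value was a whole multiple of 1 step per library within 0.01 read, so reads were recovered, and 10666 IDs above 0 in both tables gave the same LN reads (0 differed). Values under 1 are listed as 0. For these, the authors' log2 fold change gave the reads, since it still held the untruncated value, and no reads stood there as 0.5. Symbols came from GENCODE M21 and matched 49326 of 49927 IDs.

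Ratios within a table used the scaled counts, and ratios across tables used columns rescaled to a sum of 1000000 (CPM). Counts of genes used log2((value + 1)/(value + 1)) and a 2-fold size threshold, which understates low genes. Folds of single genes carry no pseudocount, and a fold against no reads uses a floor of 3 reads per library. The design foresaw raw or recovered counts, but no count model was fitted because values under 1 were removed and no group had a replicate. Members, lists and comparisons were chosen with earlier results of these data known. All 26 members were described, and of the 41 other genes the 2 highest and 2 lowest ratios per comparison at 5 or more in the higher library. Outside that rule, Nr1h2 and Nr1h3 were named beside the efflux genes, and Acly, Acss2 and Acat1 after their values were seen. The alternatives were other pseudocounts, filters, scales, centring, a 1.5-fold threshold, leaving out Abca1 and Abcg1, and, added after the data were seen, recovered reads for listed 0. Scripts ran in Python 3.11.15 with pandas 2.3.3, scipy 1.17.1 and numpy 2.4.6, figures were drawn with matplotlib 3.10.9, and the calculations were tested on simulated data.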

Additional observations from a re-analysis of the deposited data

Results flagged for a closer look

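Cyp51 and, with a listed 0 taken as 0, Dhcr7 lay 2-fold or more from LN in opposite directions in different adipose libraries. The difference was not tested, as each is 1 library. On the log2(value + 1) scale Cyp51 was at -2.06 in lean adipose and 1.03 in 10-month Foxp3Cre adipose against LN. Dhcr7 was at 1.27 in lean adipose, 1.37 in obese adipose and -1.02 in 10-month Foxp3Cre adipose, the last from 3 reads against 10. With the recovered reads in place of the listed 0 that value was -0.63, under 2-fold, and the fold without a pseudocount was 3.32 lower with a counting interval of 0.85 to 18.8, which includes no change.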

How the results depend on the processing

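No member called at 2-fold reversed its direction under another pseudocount, scale, centring or recovered reads for listed 0. With 1 library per group no replicate could be left out. No paired analysis was possible because each group has a single library. With a 1.5-fold threshold, 5 genes were lower in lean and 5 in obese adipose against LN, and 7 were higher and 9 lower in obese against lean adipose. Centring on the median of all genes gave 5 lower and a median log2 ratio of 0.12 in obese adipose against LN, and 2 higher in obese against lean adipose. A pseudocount of 5 left 3 lower in obese against lean adipose, 3 in 10-month Foxp3Cre adipose against LN and 4 in 10-month against 4-month lean adipose. A filter at 10 or more left 3 lower in obese against lean adipose. Rescaling to equal sums moved the median log2 ratio of all genes in lean adipose against LN from 0.14 to 0.28, in obese adipose against LN from 0.44 to 0.60 and in the library labelled Med23 KO against 10-month Foxp3Cre adipose from -0.15 to 0.14. Values of Fdps, Lss and Dhcr7 rest on few reads in most libraries, for a reason that was not tested. Few reads also limit every fold that rests on 3 or fewer in 1 library.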
